A study of Drosophila melanogaster with 2 samples.

Results

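The genes that lay out the head-to-tail and back-to-belly axes of the Drosophila melanogaster embryo were examined for sites of CG30431, a zinc-finger protein of the fly. They were chosen by name as members of the Hox, maternal, gap, pair-rule, segment-polarity and dorsoventral classes, with odd's relatives sob and drm, and number 59 of the 13968 protein-coding genes in the annotation. Hairy, written h here, stands in the annotation as hry. Sites were mapped by chromatin immunoprecipitation and sequencing (ChIP-seq) with an antibody against green fluorescent protein (GFP), in whole transgenic embryos aged 0 to 24 h that carried CG30431 fused to GFP at its C-terminus. The series holds 1 group of 2 biological replicates of the same line, with both sexes pooled, and no second condition. A summit is the highest point of a peak, and 3314 summits formed the submitters' reproducible set on genome build dm6. The signal is the submitters' value for each peak, on a scale that is not stated, and ran from 70.8 to 1800 in that set. Read depth is unknown, so no interval below covers it. Whole embryos mix all tissues and stages of embryogenesis, and cells in which a gene was on or off cannot be told apart here.

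Axis patterning runs as a cascade of transcription factors and signals. Maternal factors such as Bicoid and Dorsal set broad gradients, gap and pair-rule genes cut the embryo into repeated stripes, segment-polarity genes fix the borders of segments, and Hox genes give each segment its identity. Many of these genes are controlled by enhancers that lie in introns or far from the start, and many are kept silent by Polycomb proteins in cells that do not use them. The question was whether a scarcity of summits at patterning promoters also held in introns and flanks.

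A low share was seen at promoters and not in gene bodies. Of the 59 patterning genes, 1 had a summit within 500 bp of a start (1.69%, exact 95% interval 0.0429 to 9.09), against 12.8% of all protein-coding genes. In the gene body outside that window, 15 of the 59 had a summit (25.4%, interval 15 to 38.4), against 6.05% of all protein-coding genes. Up to 10 kb outside the gene, 22 had one (37.3%, interval 25 to 50.9), against 42.5%. In any of these places 33 patterning genes had a summit (55.9%), against 50.9% of all protein-coding genes. The promoter share was thus low beside the background, the body share was high, and the flank share and the total were nearer to it. Gene length was not matched in these shares, and the median was 6843 bp for patterning genes against 2164.5 bp for all protein-coding genes. By length, the body share was 73.3% against 40.3% over 20 kb, but 18.2% against 22.8% at 10 to 20 kb. In the stronger 50% of the reproducible set, 7 patterning genes had a body summit, against 3.42% of all protein-coding genes. The list was put together with earlier results of these data known, so these shares are set beside the background and not tested, and the intervals cover only the number of genes counted. They treat the genes as independent, although 5 summits were counted for more than 1 patterning gene.

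**Figure D1:**
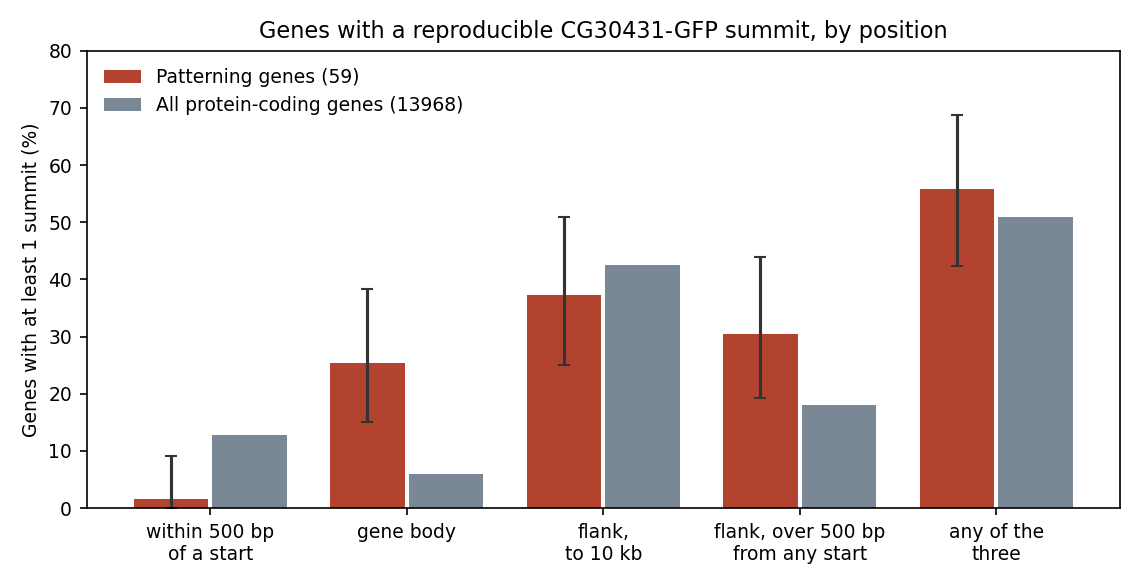
Bars give the percentage of genes with at least 1 reproducible summit at each position, for the 59 patterning genes and for all 13968 protein-coding genes; error bars are exact 95% binomial intervals over the 59 genes. The patterning genes stand at 1.69% at promoters and 25.4% in gene bodies, against 12.8% and 6.05% of all protein-coding genes. Gene length is not matched, and the patterning genes are longer.

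The patterning loci held 70 distinct summits, of which 5 lay in the reach of more than 1 patterning gene. Only 7 of the 70 (10%) lay within 500 bp of any annotated start, against 44.2% of all 3314 summits. A total of 39 lay in introns, 28 between genes, 3 in exons of non-coding RNAs and 0 in coding exons. Signal at these summits ran from 71.9 to 626, with a median of 109, against 121 over the whole set. For summits away from starts the medians were 105 at patterning loci and 111 over the set.

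Among the maternal, gap and head gap genes, bcd was the single gene of the list with a promoter summit. Bcd encodes the maternal homeodomain morphogen that patterns the anterior. Its summit on 3R, at 6759665, lay 199 bp upstream of the start between bcd and its neighbour, and its signal was 96.4 in replicate 1, 72.8 in replicate 2 and 167 when both were pooled. It ranked 1033 in the pooled list, 1018 in replicate 1 and 1004 in replicate 2, so both replicates placed it alike. A second summit in the bcd flank, 3718 bp upstream of bcd, lay 220 bp upstream of the start of Ama, the gene of the adhesion protein Amalgam, and its signal was 79.7 in replicate 1, 69.5 in replicate 2 and 151 pooled. Both of these summits also fall in the flank of zen, a dorsal homeodomain gene of the same complex.

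The homeodomain gene cad, which patterns the posterior, had a summit in its intron whose signal was 63.5 in replicate 1, 41.7 in replicate 2 and 105 pooled. Where 3 values follow each other below, they are the pooled signal and then those of replicates 1 and 2. The flank of cad held a summit 271 bp upstream of Pomp, a proteasome assembly gene (174, 93.6 and 79.4), and one in an intron of the formin gene dia (87.0, 54.9 and 30.3). The head gene oc, also called orthodenticle, had no body summit but had a flank summit on each side. The upstream one, 6079 bp from its start, reached 131 in replicate 1, 98.5 in replicate 2 and 230 pooled. The downstream one, 2791 bp past the gene, had 137, 78.5 and 57.0. No other gene start was nearer to either. The zinc-finger head gene btd had a summit 6436 bp upstream (265, 153 and 113), which lay 439 bp from the start of lncRNA:CR42657. The remaining 7 genes of this class, hb, Kr, kni, gt, tll, hkb and ems, had no summit in any of the places counted. Thus 4 of the 11 genes of the class had a summit in any place, against 50.9% of all protein-coding genes.

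None of the 11 genes of the pair-rule class had a promoter or body summit, and 5 had flank summits, a share near the 42.5% of all protein-coding genes. These are short genes, with a median length of 2757 bp. Of all protein-coding genes of 2 to 5 kb, 15.3% had a promoter summit and 1.62% a body summit. Slp1 and slp2 are a pair of neighbouring forkhead genes that act in alternate segments and in the head. The summit between them was the strongest of all 70, reaching 295 in replicate 1, 326 in replicate 2 and 626 pooled, and ranked 54 in the pooled list. It lay 4315 bp upstream of slp2 and 5426 bp past the end of slp1. A second summit between the pair lay 844 bp past slp1 (155, 93.0 and 61.9). Outside the pair, 1 summit lay 6539 bp upstream of slp1 (88.8, 54.6 and 34.1) and 1 lay 1960 bp past slp2 (96.9, 66.0 and 27.3). Both outer summits were weaker than those between the genes in each replicate.

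The odd family also had flank summits only. The zinc-finger genes odd, sob and drm lie close together on 2L and belong to 1 family. Sob had 3 flank summits with pooled signals of 205, 163 and 140. The nearest start to each was that of a non-coding RNA, CR43822 or TS2, at 1033 to 1779 bp. Drm had 2 flank summits, 5946 bp upstream (238 pooled, 137 and 97.7 in replicates 1 and 2) and 4594 bp upstream (78.0, 45.7 and 28.2). The nearest starts to these were of IFT57 and of lncRNA:CR44308. Odd had 2 downstream, of 101 pooled (71.5 and 27.4) and 87.6 pooled (45.4 and 42.3), with its own start the nearest. The other 6 genes, eve, ftz, h, run, prd and opa, had none.

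Sequence is shown for 6 of these and later summits, as windows of 201 bp on the forward strand of dm6 (RefSeq genome) with the summit at the middle base. They were taken for the strongest site of the list, the single promoter site and the strongest Hox and dorsoventral flank sites, with the oc and Doc2 sites as further carriers of a longer word. Capitals mark CACTG or its reverse complement CAGTG, a short word that earlier analysis of these data found to be frequent at CG30431-GFP summits.
slp1 and slp2, intergenic, chr2L:3832425-3832625: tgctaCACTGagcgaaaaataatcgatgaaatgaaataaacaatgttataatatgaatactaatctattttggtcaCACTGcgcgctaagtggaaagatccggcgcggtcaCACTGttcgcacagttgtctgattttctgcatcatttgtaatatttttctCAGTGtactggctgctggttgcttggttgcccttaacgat
oc, downstream flank, chrX:8627268-8627468: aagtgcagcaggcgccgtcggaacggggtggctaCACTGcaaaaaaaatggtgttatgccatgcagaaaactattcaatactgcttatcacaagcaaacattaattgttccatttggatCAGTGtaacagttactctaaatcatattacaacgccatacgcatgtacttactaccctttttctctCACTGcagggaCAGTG
Doc2, upstream flank, chr3L:9023669-9023869: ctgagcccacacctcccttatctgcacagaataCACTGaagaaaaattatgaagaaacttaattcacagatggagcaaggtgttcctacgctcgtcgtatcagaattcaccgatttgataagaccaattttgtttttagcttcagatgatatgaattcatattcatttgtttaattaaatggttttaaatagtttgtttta
bcd, promoter, chr3R:6759565-6759765: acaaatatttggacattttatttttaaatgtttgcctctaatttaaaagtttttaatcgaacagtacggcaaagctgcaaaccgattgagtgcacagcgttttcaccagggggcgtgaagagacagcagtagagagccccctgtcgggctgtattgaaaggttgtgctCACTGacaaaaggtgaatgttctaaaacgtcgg
brk, upstream flank, chrX:7307107-7307307: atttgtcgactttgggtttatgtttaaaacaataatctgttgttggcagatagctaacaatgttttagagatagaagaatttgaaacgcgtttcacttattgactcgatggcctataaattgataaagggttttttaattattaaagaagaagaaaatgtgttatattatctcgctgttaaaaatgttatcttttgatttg
abd-A, downstream flank, chr3R:16798776-16798976: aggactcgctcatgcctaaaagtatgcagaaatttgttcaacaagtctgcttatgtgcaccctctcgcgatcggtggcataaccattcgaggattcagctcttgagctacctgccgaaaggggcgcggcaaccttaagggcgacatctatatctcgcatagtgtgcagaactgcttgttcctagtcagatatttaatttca
The window between slp1 and slp2 holds 4 copies of the word, that of oc 4, those of Doc2 and bcd 1 each, and those of brk and abd-A 0. Summits among the strongest of the list thus occurred with and without it.

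The Hox genes carried summits in their long introns and none at their starts. The complexes they form are classic targets of Polycomb silencing and of boundary elements. Among the 8 Hox genes, 5 had a body summit, against 6.05% of all protein-coding genes. Their median length was 30563 bp, and 40.3% of protein-coding genes over 20 kb had one. A summit by any route lay at 6, against 50.9%, with Dfd and Scr having none. At promoters it was 0 of 8, against 12.8%, and 8 genes are few for such a share. The Hox gene bodies held 11 summits over 338 kb, or 3.26 per 100 kb. All protein-coding genes held 1.39 per 100 kb, likewise counted away from starts.

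Antp, which specifies thoracic identity, held 6 of the 11, the most of any gene in the list. Pooled signals of the 6 ran from 93.4 to 156. The strongest, at 6914571 on 3R, had 92.4 in replicate 1 and 60.5 in replicate 2. Each of the 6 was higher in replicate 1. They lay at least 3499 bp from any Antp start, and 3 of them were nearer to a start of lncRNA:CR43252 inside the gene. Ubx, which acts in the posterior thorax and first abdominal segment, had 2 weak intronic summits, of 81.8 pooled (49.5 and 31.9 in replicates 1 and 2) and 73.1 pooled (48.3 and 24.3). The head genes lab and pb had 1 each. That of lab had 79.4, 32.9 and 45.2, higher in replicate 2, and that of pb had 85.3, 57.5 and 22.2. Abd-B, the gene of the last abdominal segments, had 1 at 2008 bp inside a start (121, 69.7 and 56.2). These 5 body summits outside Antp ranked from 1651 to 3196 of the 3314.

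The strongest Hox summit lay outside any gene. It was at 16798876 on 3R, between Ubx and abd-A and 8338 bp past the end of abd-A, the gene of the middle abdominal segments. Replicate 1 had 170 and replicate 2 had 141 there, with 310 pooled and a pooled rank of 298. The nearest start, 1724 bp away, was that of lncRNA:CR45750. Upstream of abd-A lay 2 more, in introns of the RNA gene iab8, at 4800 bp (101, 67.8 and 34.5) and 7938 bp (83.0, 50.8 and 25.2). The flank summit of Abd-B lay in iab8 as well (86.9, 51.8 and 35.3).

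Over whole complexes, the Antennapedia complex (lab to Antp, 6661427 to 6999228 on 3R) held 11 summits in 338 kb, 9 of them away from any start. The bithorax complex (Ubx to Abd-B, 16656623 to 16972236) held 11 in 316 kb, all 11 away from any start. These are densities of 3.26 and 3.49 per 100 kb, against 2.65 per 100 kb over the union of all protein-coding genes with 10 kb of flank. Counted without summits at starts, that background was 1.44 per 100 kb. The like counts are the 9 summits away from starts in the Antennapedia complex and the 11 in the bithorax complex, so 3.26 is not its counterpart. The median signal was 114 in the Antennapedia complex and 97.7 in the bithorax complex, and within the bithorax complex the 310 of the site beside abd-A was followed by a value of 133.

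**Figure D2:**
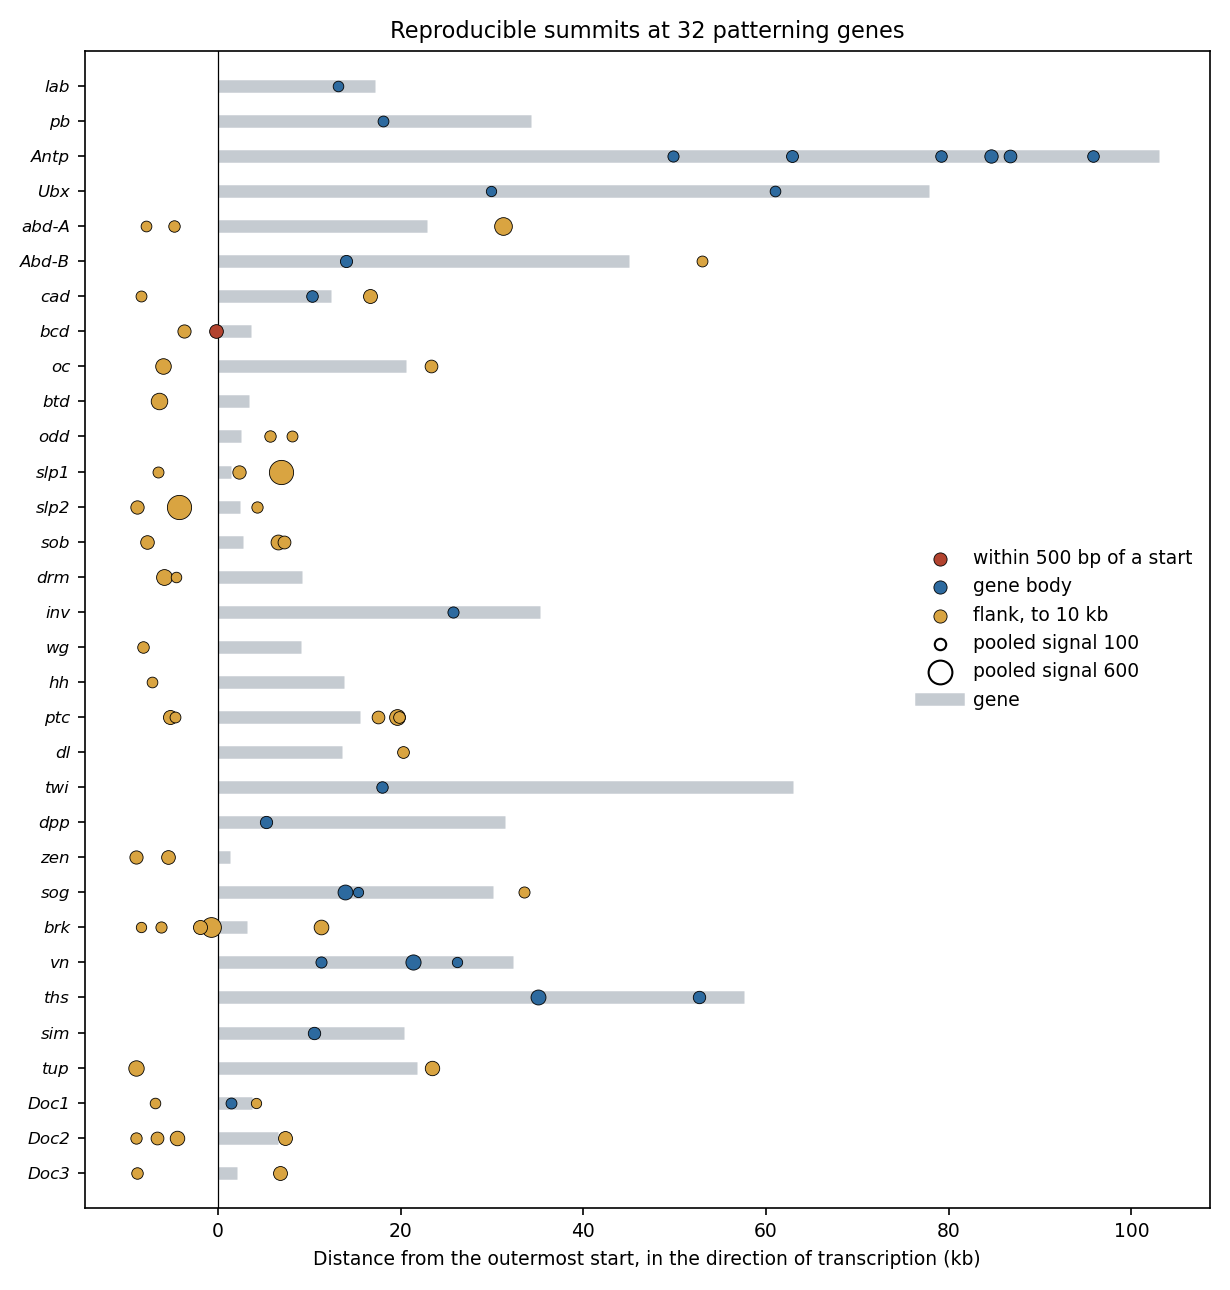
Each row is 1 of 32 of the 33 patterning genes with a summit, drawn from its outermost start at 0 kb in the direction of transcription; grey bars are gene bodies, points are reproducible summits, and point area grows with pooled signal. Body summits lie mostly along long genes such as Antp, whose 6 all lie within the gene. Flank summits lie beside short genes such as brk and longer ones such as ptc and abd-A, and bcd has the one promoter point.

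Of the 8 segment-polarity genes, 1 had a body summit, against 6.05% of all protein-coding genes. Flank summits lay at 3 of these genes, a share near the 42.5% of all protein-coding genes. Their loci with 10 kb of flank held 8 summits over 246 kb, or 3.26 per 100 kb, against 2.65 over those of all protein-coding genes. Inv, the homeodomain neighbour of en on 2R, had an intronic summit 24443 bp from its start (93.3 pooled, 51.6 and 46.4 in replicates 1 and 2), while en itself had none. The Wnt ligand gene wg had a summit 8221 bp upstream (104, 68.3 and 37.6), and the Hedgehog ligand gene hh had one 7280 bp upstream (82.1, 44.9 and 33.4). Ptc, which encodes the Hedgehog receptor, had 5 flank summits. Those upstream, at 5287 and 4734 bp, had pooled signals of 178 and 85.7 and lay nearest to ptc. The other 3, past its 3' end, lay in introns of Acsl, an acyl-CoA synthetase gene, 972 to 1472 bp from an Acsl start, with signals of 108 to 236. Those of 108 and 236 came from peaks that overlap each other, and both were counted. The Pax genes gsb and gsb-n and the zinc-finger gene ci, through which Hedgehog acts, had none.

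Of the 21 dorsoventral genes, the largest class, 14 had a summit, against 50.9% of all protein-coding genes. Again none had one at a start, against 12.8%. Body summits lay in 8 of them, against 6.05%, with gene length not matched and a class median of 13535 bp. These were 12 summits over 345 kb, or 3.47 per 100 kb. All protein-coding genes held 1.39 per 100 kb, likewise counted away from starts. Several dorsoventral genes encode secreted ligands or their regulators. The epidermal growth factor ligand gene vn had 3 intronic summits. The strongest had 115 in replicate 1, 95.1 in replicate 2 and 215 pooled. The second had 92.6 (43.2 and 46.7). The weakest had 73.3 pooled but only 17.5 in replicate 1 against 46.2 in replicate 2, the lowest ratio of replicate 1 to replicate 2 among the 70, at 0.38. The fibroblast growth factor ligand gene ths had 2, of 208 pooled (109 and 90.3) and 128 pooled (78.3 and 48.6), whereas the related ligand gene pyr had none. The gene of the bone morphogenetic protein (BMP) antagonist Sog had 2 intronic summits, of 206 pooled (102 and 110) and 71.9 pooled (34.4 and 37.3), and 1 in its flank (92.0, 46.8 and 43.4). Dpp, the main BMP ligand gene, had 1 intronic summit 5242 bp from a start (124, 79.9 and 46.0). The BMP regulators tld and tsg had none. These ligand genes thus held sites of both high and low signal in each replicate.

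Transcription factor genes of this class were more mixed. Brk, which encodes a repressor of Dpp targets, had 5 flank summits, as many as were counted for ptc with its overlapping peaks. The strongest lay 732 bp upstream of its start, just outside the promoter window. It had 245 in replicate 1, 151 in replicate 2 and 399 pooled, and ranked 177. Those at 1989, 6295 and 8413 bp upstream had pooled signals of 178, 94.3 and 74.0. The one downstream had 198. All 5 lay in introns of the gene CG1677 and of a non-coding RNA that span brk. Brk and Doc1, whose intronic summit lay 953 bp from its start, were among the genes that joined bcd when the promoter window was 1000 bp. That summit of Doc1 had a signal of 87.3 (56.8 and 21.8).

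The T-box genes Doc1, Doc2 and Doc3 lie in a cluster on 3L and act in dorsal tissues. Doc2 had 4 flank summits. Those at 4523, 6671 and 9004 bp upstream, towards Doc1, had pooled signals of 193, 139 and 97.9, with Doc2 the nearest start to each. The other lay between Doc2 and Doc3 (173, 91.4 and 83.0). Doc1 had 2 weak flank summits, of 79.0 (33.2 and 44.4) and 72.7 (47.0 and 29.2), and Doc3 had, beside the one it shares with Doc2, 1 of 103 (56.3 and 41.4), which lay 111 bp from the start of smg, the gene of the RNA-binding protein Smaug. Tup, a LIM-homeodomain gene, had 2 in its flanks, of 224 (137 and 79.8) and 189 (108 and 81.3), with the weaker 130 bp from the start of CG10602. Dl, the gene of the maternal Dorsal protein, had 1 of 110 (54.5 and 53.0) in its flank, 444 bp from a non-coding RNA start. Twi, a mesoderm gene that spans 62952 bp in this annotation, had 1 of 101 (46.2 and 52.1) in an intron, 17941 bp from its start and 4431 bp from that of CG9896. Sim, of the ventral midline, had 1 of 127 (90.9 and 35.4). Sna, ind, vnd and pnr had no summit.

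Patterning genes are longer than most genes, and longer genes held more body summits. Their median length was 6843 bp, against 2164.5 bp for all protein-coding genes. Among genes over 20 kb, 11 of 15 patterning genes had a body summit (73.3%), against 40.3% of 1020 protein-coding genes of that length, with median lengths of 32327 and 37213.5 bp. The 11 genes were the Hox genes pb, Antp, Ubx and Abd-B, with inv, twi, dpp, sog, vn, ths and sim. Among genes of 10 to 20 kb, 2 of 11 had one, lab and cad (18.2%), against 22.8%, so the share was not higher in that class. Of the shorter patterning genes, 1 of 7 of 5 to 10 kb (14.3%), 1 of 17 of 2 to 5 kb (5.88%) and 0 of 9 under 2 kb had one, against 8.84%, 1.62% and 0.26% of protein-coding genes of those lengths. Per 100 kb of whole gene span, with summits in promoter windows kept, patterning genes held 2.78 summits, against 2.08 for all protein-coding genes. All 25 body summits of patterning genes lay away from starts, and counting only such summits the values were 2.78 and 1.39. With summits in a gene's own promoter windows left out, patterning genes of 10 to 20 kb held 1.27 per 100 kb of gene. Those over 20 kb held 3.38. Protein-coding genes of those lengths held 2.31 and 1.67. The pair-rule class was at 0 over 51.8 kb, and segment-polarity genes were at 0.982 per 100 kb.

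**Figure D3:**
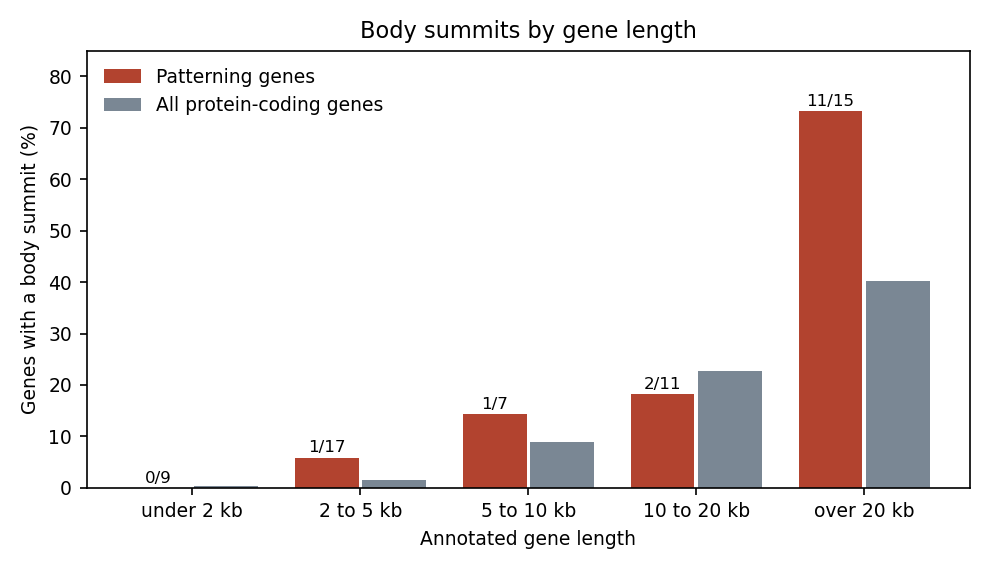
Bars give the percentage of genes with a summit in the body outside the promoter window, by annotated gene length, for patterning genes and all protein-coding genes; fractions give the patterning genes with a summit over all in that length class. In the longest class 11 of 15 patterning genes had one, and in the class of 10 to 20 kb 2 of 11.

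Flanks of patterning genes differed from other flanks in what they contain. They held a median of 1 other protein-coding gene within 10 kb, against 5 for all protein-coding genes. Of the 45 distinct flank summits, 7 lay within 500 bp of a start. The genes with that start were bcd, Ama, Pomp, CG10602, smg and 2 non-coding RNA genes. Counting only flank summits away from every start, 18 of 59 patterning genes had one (30.5%, interval 19.2 to 43.9), against 18.1% of all protein-coding genes. For 10 genes (16.9%) a flank summit had the patterning gene's own start as the nearest, against 2.91% of all protein-coding genes. The part of the wider gene spacing in these shares was not tested. Over the loci as a whole, bodies with 10 kb on each side, summits away from starts numbered 3.14 per 100 kb, against 1.44.

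Distance needs no window and did not keep 1 order. The median distance from a patterning gene's nearest start to the nearest summit was 13264 bp (quartiles 5021 and 27080), against 11276 bp (3478 and 27828) for all protein-coding genes. With the stronger 50% of the reproducible set it was 18269 bp, against 22454 bp, so the order turned. The genes farthest from a summit were ci on chromosome 4 (440875 bp), Kr (141049 bp), tsg (67876 bp), vnd (55414 bp) and pnr (51650 bp). Chromosome 4 as a whole carried 3 of the 3314 summits.

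The longer lists that entered the submitters' reproducibility step were read for weaker sites. Each holds 30000 entries, background included. Within 500 bp of a start, 19 patterning genes had an entry of any strength in the pooled list (32.2%), against 36% of all protein-coding genes. In replicate 1 it was 16 genes (27.1%, against 37.7%), in replicate 2 it was 23 (39%, against 35.2%), and 10 genes had one in both. The shares thus lay on either side of the background, depending on the replicate. In the strongest 10000 pooled entries 10.2% of patterning genes had a promoter entry, against 22.4%, and in the strongest 5000 it was 3.39% against 16.3%. For gene bodies the order was the opposite at every depth, with 74.6% of patterning genes and 34% of all protein-coding genes at 30000. Gene length was not matched at any depth, and a longer body can hold more entries.

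**Figure D4:**
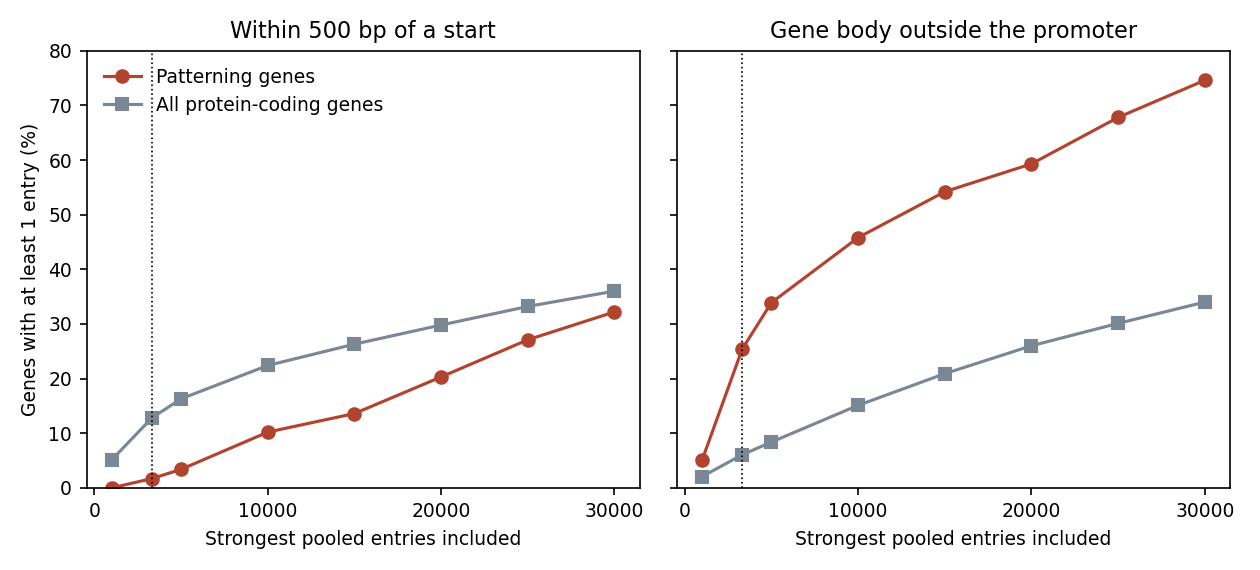
The percentage of genes with at least 1 pooled entry is plotted against how many of the strongest entries are included, at promoters (left) and in gene bodies (right), for patterning genes and all protein-coding genes; the dotted line marks the 3314 of the reproducible set. At promoters the patterning genes start at 0% and reach 32.2%, below the 36% of all protein-coding genes, and in bodies they reach 74.6% against 34%, with gene length not matched.

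After bcd, the best ranked promoter entries were weak or uneven between replicates. At Dfd, a Hox gene of the head, the entry 355 bp upstream ranked 4063 with a signal of 60.1, and replicate 1 had 33.6 there. The entry of replicate 2 that overlaps it had 31.8 but does not hold the pooled summit. At the neural column gene vnd the entry ranked 5933, with 45.7 pooled, 34.9 in replicate 1 and 12.9 in replicate 2. The GATA factor gene pnr had 40.7 (20.9 and 22.5), and oc had 36.9 (15.4 and 21.8). Dl had 35.3 in the pooled list and 15.5 in replicate 2, with no overlapping entry among those of replicate 1. Replicate 1 did have 1 entry elsewhere within 500 bp of a dl start, ranked 8275. The lowest signal in the reproducible set was 70.8, above all of these. Of the 26 patterning genes with no reproducible summit, 3 had no pooled entry either in promoter, body or flank, namely Kr, hkb and ci.

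Summits at patterning loci were shared by the replicates at a rate close to that of the whole set. Of the 70, 56 (80%) lay inside the 3314 strongest entries of both replicates, against 78.7% of all summits. All 70 had a value in both. Signal was higher in replicate 1 at 60 and in replicate 2 at 10, with a median ratio of replicate 1 to replicate 2 of 1.36, against 1.34 over the whole set. The reproducible set was made from these lists, so this sharing is not independent of how it was made.

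**Figure D5:**
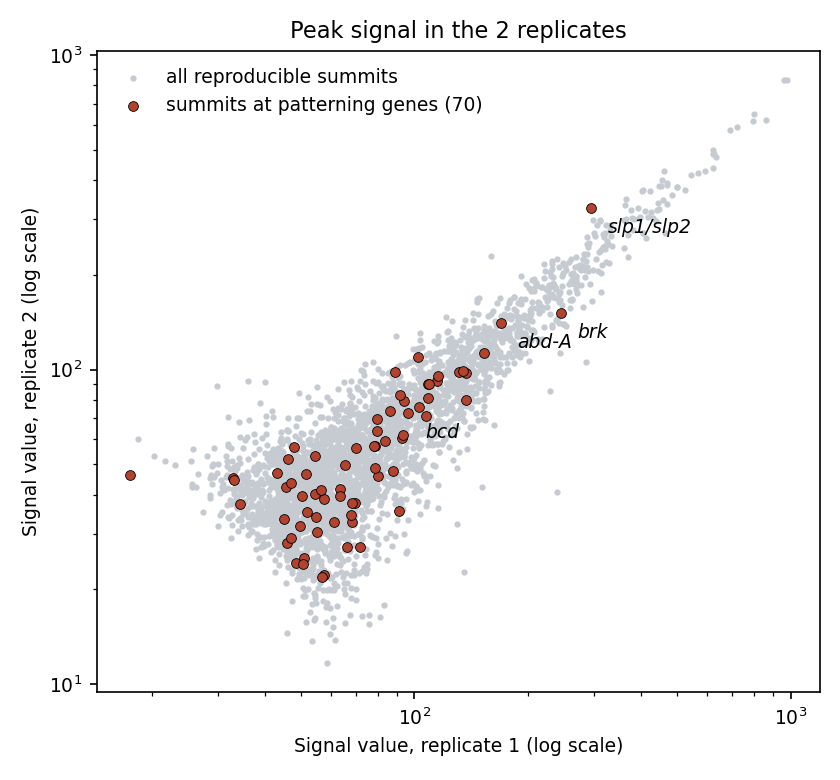
Each point is a reproducible summit, with its signal in replicate 1 across and in replicate 2 upwards on log scales. Red points are the 70 at patterning loci. Grey points are those of the 3314 summits that have a value in both replicates. The summit between slp1 and slp2, at 295 and 326, is the highest of the red points, followed by brk at 245 and 151.

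The word shown in capitals above, CACTG, on either strand, lay in 40 of 70 windows of 201 bp at patterning loci (57.1%), against 51.0% of all summit windows. Most patterning windows lie away from starts, and among such windows the shares were close, 57.1% against 55.6%. Of 4 longer words that contain CACTG on one strand, found earlier in these same data, CACTGAGA lay in 4 windows (5.71%, against 4.74%). TACACTGA lay in 6 (8.57%, against 4.19%). Away from starts these shares were 6.35% against 6.76% for CACTGAGA, so the order turned, and 9.52% against 5.79% for TACACTGA. The words can overlap each other. CACTGTGC and CACAGTGG lay in 0 of 70, against 5.82% and 5.79% of all summit windows. Any of the 4 words lay in 8 of 70 windows (11.4%), against 14.3% of all summit windows, and in 12.7% of those away from starts, against 17.6%. The 8 windows belong to cad, oc, odd, slp1 with slp2, vn, tup and Doc2, which has 2. A count of 0 says only that these letters are not in these windows.

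Patterning promoters differed in base composition from other promoters. Over 250 bp before to 50 bp after the outermost start, their median GC content was 53.3%, against 38% for all protein-coding genes and 37.3% for those with a promoter summit. The DRE word TATCGATA, on either strand, lay in 2 of 59 (3.39%, those of vnd and pnr), against 9.36% of 13945 protein-coding promoters on the main arms. The core of Motif 1, GGTCACACT, lay in 0, against 6.05%. TATAAA lay in 11 (18.6%), against 45.8%. CACTG itself lay in 31 (52.5%), against 46.2%, and any of the 4 longer words in 2, ems and slp2 (3.39%), against 3.75%, a share near the background. These shares describe letters in windows of 300 bp, and their part in the low promoter count was not tested. At the 70 summits, by contrast, median GC content was 34.6%, against 35.3% over all summits.

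Other regulators of the same pathways had a promoter share close to the background. A list of 47 maternal, terminal, Toll, Wnt, Hedgehog, BMP and head regulators had a promoter summit at 7 (14.9%, interval 6.2 to 28.3), against the 12.8% of all protein-coding genes given above. Body summits lay in 13 (27.7%, against 6.05%), flank summits in 24 (51.1%, against 42.5%) and a summit in any of these places in 31 (66%, against 50.9%). Their body share was thus close to that of the 59 patterning genes. Their median length, 5081 bp, was also above the 2164.5 bp of all protein-coding genes. Gro, which encodes the Groucho corepressor used by many patterning factors, had 2 promoter summits. The stronger, 122 bp upstream of a start, had 269 in replicate 1, 180 in replicate 2 and 452 pooled. Cact, the gene of the inhibitor that holds Dorsal in the cytoplasm, had 232 (126 and 102). The promoters of the repressor gene cic, the head gene cnc and the Wnt antagonist gene nkd had pooled signals of 105, 112 and 110, and at cic no entry of replicate 2 overlapped. For nos and the Toll pathway kinase gene pll, with 76.0 and 117, another start was nearer, that of CG11779 at 59 bp and that of TfIIA-L at 78 bp.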

How the data were processed

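Only the dm6 peak lists were analysed, and those on dm3 were not used here. The deposited readme says that peaks of a replicate were derived from its reads and those of a control, that pooling gave a further list, and that comparing lists by irreproducible discovery rate gave the reproducible set. Aligner, peak caller and rate threshold: not given in the sources used here. The authors' signal value has no stated scale, and their −log10 q-value ran from 2.35 to 3.57 in the reproducible set. Summits come from the deposited offset score, added to each peak's start. Chromatin was sonicated to 200 to 800 bp, per the labels.

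Gene models were those of Ensembl release 115 (BDGP 6.54), and sequence was RefSeq's genome of the same assembly. All annotated starts of a gene were used. Each summit was counted once per gene, as promoter (500 bp on each side of a start), else body, else flank (10 kb). A replicate's value at a summit is that of its strongest entry holding it. Intervals are exact binomial (Clopper-Pearson) at 95%. The counting was tested on planted summits. The values of 1 gene of the list are counted but not reported here. Other named genes are every gene with a summit, the 5 next best promoter entries, the 5 farthest genes and the further regulators with a promoter summit; other genes without a summit were named after their values were seen. Members, lists and words were chosen with earlier results of these data known. No significance test was made. Computing used Python 3.11.15 with scipy 1.17.1, pandas 2.3.3, numpy 2.4.6 and, for plots, matplotlib 3.10.9.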

Additional observations from a re-analysis of the deposited data

How the results depend on the processing

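Each count was repeated on the stronger 50% of the reproducible set, on the 3314 strongest entries of 1 replicate with the other left out, and with other windows. Promoter counts stayed at 1 gene in the stronger 50% of peaks, but the share of all protein-coding genes fell there to 7.64%. They were also 1 with a 200-bp window (8.25% of all protein-coding genes), the outermost start alone (11%) and any overlap (13.8%). Without replicate 1 or replicate 2 they were 1 to 1 (12.8% and 12.6%). They were 4 with a window of 1000 bp (15.1% of all protein-coding genes), 6 in the strongest 10000 pooled entries (22.4%) and 19 in all of them (36%). Body counts fell to 7 of 59 in the stronger 50% of peaks, against 3.42% of all protein-coding genes, and were 15 to 16 without a replicate. Flank counts were 18 away from any start, 23 to 24 without a replicate, 38 with a flank of 20 kb (64% of all protein-coding genes) and 10 where the patterning gene's start had to be the nearest. Counts in any place were 32 to 34 without a replicate. Summits per 100 kb of locus were 3.49, 3.64 to 3.74 without a replicate, 1.65 in the stronger 50% of peaks (1.34 for all protein-coding genes) and 3.14 away from starts. The median distance to a summit was 18269 bp in the stronger 50% of peaks, below the 22454 bp of all protein-coding genes, so which was larger changed there, and it was 11228 to 15377 bp without a replicate. These alternatives change how many peaks or bases are counted, and no other cause was tested. No paired analysis was possible because the series has 1 group. With read depth unknown and 2 replicates, a missing summit shows only that none was called.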
